A study of Mus musculus with 92 samples.

Results

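The 10 genes described here encode parts of the endoplasmic reticulum (ER) stress response: Hspa5, Hsp90b1, Calr, Pdia3, Pdia4, Pdia6, Manf, Herpud1, Xbp1 and Atf4. They were taken by symbol from a table of 13441 genes, and all 10 were found in it. RNA was measured by sequencing of libraries for polyadenylated RNA, made from 500 ng of RNA, from the quadriceps of 92 DOz mice, an outbred stock. All animals were 18 to 20 weeks old and had eaten chow for their whole life, so there was 1 group and no contrast between treatments. The series as a whole is about muscle ceramides and insulin resistance. Ceramide and insulin measurements were not analysed here, and neither genotype nor sex was used. The animals' title numbers fall into 5 runs of 33, 14, 21, 11 and 13 animals. What the numbers stand for is not given in the labels, and the runs were treated as a possible batch. The values are log2 expression as deposited: raising 2 to each value and summing gave 898071 to 1140761 per animal. Sums of marker levels below are on that scale. The depth of each library is unknown. All 14 defining skeletal muscle genes were measured, with means from 11.11 for Casq1 to 15.90 for Myh4.

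The ER folds membrane and secreted proteins, and in muscle it is continuous with the sarcoplasmic reticulum that stores calcium. When unfolded protein accumulates, the sensors IRE1, PERK and ATF6 start the unfolded protein response. IRE1 splices Xbp1 RNA so that it encodes an active transcription factor, PERK slows translation while favouring that of Atf4, and ATF6 is cut to release a transcription factor. These factors raise chaperones, disulphide isomerases and the machinery that removes misfolded protein for degradation. The table gives the total Xbp1 transcript and not its spliced form. ATF4 is set largely at translation, so its transcript level is not its protein level.

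Several of these genes carry a named ER stress element before their start, and the sequences are shown because the members that hold one can then be set beside the expression results. Promoters were taken from RefSeq (GRCm38.p6), from 250 bases before to 50 bases after each start, and 9 of the 10 genes matched, all but Manf. Both strands were searched for the ER stress element (ERSE, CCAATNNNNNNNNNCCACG), ERSE-II (ATTGGNCCACG), the core of the unfolded protein response element (TGACGTG) and an ATF4 composite element (TGATGNAA). The matches found in these 9 promoters did not overlap each other. Each sequence below reads 5' to 3' on the gene's strand, with the matches in capitals, and the stretches of Hsp90b1, Calr and Pdia6 stop where an exon of the GENCODE annotation begins, while that of Herpud1 stops at the RefSeq start. For Hspa5 only the 19 bases of its ERSE are shown, from base -65 to base -47 before the RefSeq start. They lie inside the gene's first exon in GENCODE, which begins further upstream than the RefSeq start.
Hspa5: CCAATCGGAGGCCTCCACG
Hsp90b1: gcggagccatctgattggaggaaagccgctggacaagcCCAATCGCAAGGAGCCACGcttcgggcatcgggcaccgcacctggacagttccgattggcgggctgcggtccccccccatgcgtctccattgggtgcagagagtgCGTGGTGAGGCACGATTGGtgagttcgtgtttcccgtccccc
Calr: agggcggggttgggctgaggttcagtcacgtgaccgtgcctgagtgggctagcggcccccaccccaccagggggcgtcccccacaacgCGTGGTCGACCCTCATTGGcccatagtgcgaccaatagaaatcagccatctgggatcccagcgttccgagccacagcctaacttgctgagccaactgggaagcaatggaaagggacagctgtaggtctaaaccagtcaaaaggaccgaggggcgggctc
Pdia6: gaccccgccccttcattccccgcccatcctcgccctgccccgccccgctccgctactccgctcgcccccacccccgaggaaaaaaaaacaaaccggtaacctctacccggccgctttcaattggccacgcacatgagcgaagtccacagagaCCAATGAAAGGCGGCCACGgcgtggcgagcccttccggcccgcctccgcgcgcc
Herpud1: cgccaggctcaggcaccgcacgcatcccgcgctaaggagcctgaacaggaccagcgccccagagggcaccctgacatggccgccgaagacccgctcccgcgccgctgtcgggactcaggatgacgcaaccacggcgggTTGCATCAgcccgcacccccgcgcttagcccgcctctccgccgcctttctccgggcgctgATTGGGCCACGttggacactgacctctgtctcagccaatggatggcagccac
The Hsp90b1 stretch is chr10:86705510-86705694 on the minus strand, and it holds 2 ERSE matches. The Calr stretch is chr8:84846935-84847181 on the minus strand, with 1 ERSE in reverse orientation. The Pdia6 stretch is chr12:17266339-17266544 on the plus strand, with 1 ERSE. The Herpud1 stretch is chr8:94386179-94386428 on the plus strand, with 1 ERSE-II and, in reverse orientation, 1 ATF4 composite element.

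An ERSE was present in 4 of the 9 promoters (Hspa5, Hsp90b1, Calr and Pdia6), against 0.119% of the 32851 promoters searched. ERSE-II was present in Herpud1 only among the 9, against 0.0365% of promoters. The core unfolded protein response element was found in Hspa5, against 2.01% of promoters, and the ATF4 composite element in Herpud1, against 3.97%. No match to these letters was found in the windows of Pdia3, Pdia4, Xbp1 and Atf4. A match describes letters in a window and is not a measured binding site. The motifs were picked because they are named elements of this response. Their shares among its members therefore depend on that choice and are no test of enrichment.

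The chaperones are described first. Hspa5 (ENSMUSG00000026864, chr2:34771970-34777547) encodes BiP, the HSP70 of the ER, which also holds the sensors inactive. Its level ran from 7.34 in animal 11 through a median of 7.95 to 8.48 in animal 43, a 2.20-fold range, with a mean of 7.92 ± 0.25 (SD, n = 92). Hsp90b1 (GRP94, the HSP90 of the ER; ENSMUSG00000020048, chr10:86690209-86705509) ran from 6.97 in animal 11 through 7.47 to 8.06, mean 7.48 ± 0.22. Calr (calreticulin, a calcium-binding chaperone of glycoproteins; ENSMUSG00000003814, chr8:84841850-84846934) ran from 7.01 in animal 11 through 7.40 to 7.70 in animal 55, mean 7.41 ± 0.13. Animal 11 thus held the lowest value of each of these chaperones. Calr had the narrowest spread of the 10, a 1.61-fold range, and its SD relative to that of genes of like level lay at percentile 6.36 of all genes.

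The disulphide isomerases, which form and rearrange disulphide bonds in the ER, follow. Pdia3 (ERp57, the partner of calreticulin; ENSMUSG00000027248, chr2:121413775-121438687) ran from 5.19 through 5.78 to 6.56 in animal 260, mean 5.80 ± 0.27. Pdia4 (ERp72; ENSMUSG00000025823, chr6:47796141-47813430) ran from 3.43 in animal 33 through 3.98 to 4.86, again in animal 260, mean 4.02 ± 0.29. Pdia6 (P5; ENSMUSG00000020571, chr12:17266545-17284770) ran from 4.86 in animal 24 through 5.36 to 5.98 in animal 55, mean 5.38 ± 0.21. The same animal was therefore highest for Pdia3 and Pdia4 but not for Pdia6. Exons of Pdia3 share 18 bases with Catsper2.

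Manf, Herpud1 and the transcription factors make up the rest. Manf (an ER-resident and secreted factor induced by ER stress; ENSMUSG00000032575, chr9:106838312-106891979) had the widest range, 2.92-fold, from 3.12 in animal 25 through 3.84 to 4.67 in animal 43, mean 3.92 ± 0.32. Its exons share 160 bases with Dcaf1 and Rbm15b, so some of its reads could have been divided between them. Herpud1 (a membrane component of ER-associated degradation; ENSMUSG00000031770, chr8:94386438-94395377) ran from 5.84 in animal 11 through 6.49 to 6.96, mean 6.49 ± 0.21. Xbp1 (ENSMUSG00000020484, chr11:5520659-5525893) ran from 5.45 through 6.06 to 6.55 in animal 16, mean 6.05 ± 0.23. Atf4 (ENSMUSG00000042406, chr15:80255184-80257541) ran from 6.52 in animal 260 through 6.99 to 7.46 in animal 37, mean 7.01 ± 0.18. Animal 260, highest for Pdia3 and Pdia4, was thus lowest for Atf4. Of the 10 genes, 1 (Manf) had an SD above the median SD of all genes, 0.318, while 6 lay above the SD that genes of like level had.

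**Figure D1:**
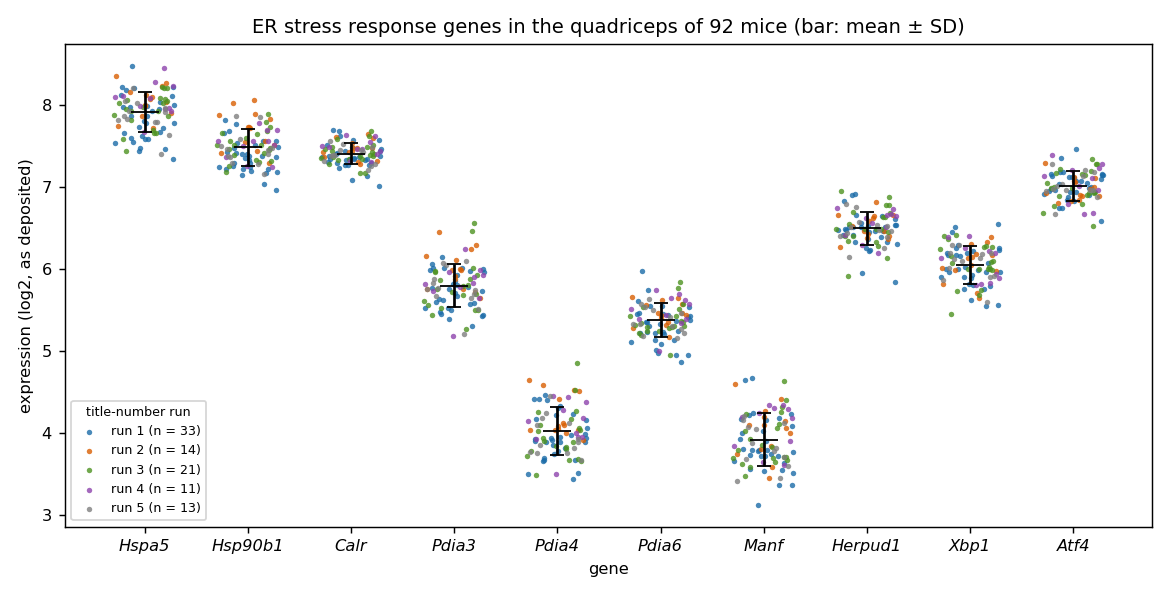
Log2 expression as deposited (vertical axis) of each of the 10 genes (horizontal axis), 1 point per animal, coloured by title-number run, with the mean ± SD of 92 animals as a bar. Calr has the narrowest spread (SD 0.13) and Manf the widest (SD 0.32), and the points of the 5 runs overlap for each of the 10 genes.

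Per kilobase of merged exon, on the log2 scale, the order of levels was Calr (5.88), Hspa5 (5.84), Atf4 (5.78), Hsp90b1 (5.47), Herpud1 (5.27), Xbp1 (4.35), Pdia3 (4.15), Pdia6 (3.47), Pdia4 (2.76) and Manf (2.10). Some neighbours in that order lay closer than the SD of their difference between animals. Calr was above Hspa5 in 54 of 92 animals, Hspa5 above Atf4 in 56, Xbp1 above Pdia3 in 63 and Hsp90b1 above Herpud1 in 73. Herpud1 was above Xbp1, and Pdia6 above Pdia4, in 92 of 92 animals. With the longest transcript in place of merged exons the order was the same, but which neighbours were close depended on the length used. Calr was then above Hspa5 in 82 animals, Xbp1 above Pdia3 in 87 and Hsp90b1 above Herpud1 in 80, each by more than the SD, while Hspa5 was above Atf4 in 53, Atf4 above Hsp90b1 in 75, Pdia3 above Pdia6 in 59 and Pdia4 above Manf in 48. Of the 9 neighbouring pairs, Hspa5 and Atf4 alone lay within the SD with both lengths.

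A few animals stood at an end for most of the genes. Animal 11 was among the lowest 10 animals for 8 genes, with Hspa5 at 7.34, Herpud1 at 5.84 and Atf4 at 6.58, while its Pdia3 (5.73) and Pdia4 (3.98) lay near their medians. Animal 43 was among the highest 10 for 8 genes, with Hspa5 at 8.48, Manf at 4.67 and Herpud1 at 6.91. Animal 260 was split: its Pdia3 (6.56), Pdia4 (4.86) and Manf (4.64) were among the highest, and its Atf4 (6.52) and Herpud1 (6.13) were low. Animal 260 also stood apart in the whole table. It had the largest value on the second principal component of all genes (134, the next animal 66.7), and the highest macrophage score (3.14) and fibroblast score (2.77), each the mean of standardised markers. The fits below were therefore repeated without it, an alternative chosen after seeing the data. The removal of the 2 animals farthest from the median of Pdia3 or of Atf4 also took it out.

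No member passed the test for a difference between the 5 runs, which 2 of all 13441 genes passed (0.0149%; Sh3bp5 and Klf7; limma F test, Benjamini-Hochberg; 1120 at an unadjusted p under 0.05). Hsp90b1 came nearest, with run means from 7.37 ± 0.20 (n = 33) in the first run to 7.69 ± 0.23 (n = 14) in the second (limma, unadjusted p = 8.33e-05, adjusted p = 0.224). For Hspa5 the means ran from 7.83 ± 0.28 (n = 33) to 8.07 ± 0.21 (n = 11), with an adjusted p of 0.459 in limma. Xbp1 and Atf4 had run means within 6.03 to 6.08 and 6.98 to 7.04. The ranges of the runs overlapped for both chaperones.

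Across animals the 10 genes mostly varied together. Pearson's r was positive for 43 of the 45 pairs, with a median of 0.450 and with 17 pairs at 0.5 or above. Among all 90323520 pairs of genes in the table the median r was -0.00144, and 0.254% reached 0.5. The pairs of members were chosen with earlier results of these data known, so p-values below are unadjusted. Each permutation test was two-sided with 100000 resamples, for which 1e-05 is the smallest p possible.

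By r over all animals, the tightest relations joined Hspa5 to Pdia6 and Manf, and Pdia3 to Pdia4. For Hspa5 and Pdia6, r was 0.806 and rho 0.828 (permutation p = 1e-05 each, n = 92). It was 0.796 when the 2 animals with the most extreme Hspa5 were left out, and 0.718 to 0.821 within the 5 runs. For Pdia3 and Pdia4, r was 0.814 and rho 0.802 (permutation p = 1e-05 each), 0.787 without 2 animals and 0.663 to 0.911 within runs. Hspa5 and Manf gave r = 0.766 and rho = 0.755 (permutation p = 1e-05 each), 0.749 without 2 animals and 0.660 to 0.803 within runs. Pdia6 and Manf were as close, at r = 0.764 and rho = 0.772 (permutation p = 1e-05 each), 0.754 without 2 animals and 0.696 to 0.851 within runs. These relations were positive in each of the 5 runs. Hspa5 correlated best with the mean of the other 9 genes, at r = 0.881, followed by Pdia6 at 0.827 and Manf at 0.794.

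Xbp1, Atf4 and Herpud1 were more loosely tied, with r against the mean of the other 9 of 0.379, 0.265 and 0.386. For Pdia3, r was -0.0465 with Xbp1 and -0.0312 with Atf4, the only negative values of the 45. Without animal 260 the latter was 0.0604. Pdia4 and Xbp1 gave r = 0.0234. Hsp90b1 and Atf4 gave r = 0.0216. Hspa5 and Herpud1 gave r = 0.470 and rho = 0.404 (permutation p = 1e-05 and 5e-05), but r was -0.357 in 1 of the 5 runs and up to 0.635 in the others, so this relation did not hold in every run. Hspa5 and Xbp1 gave r = 0.443, with -0.277 in 1 run. The first axis of the 10 standardised genes took 51.9% of their variance, with all loadings positive. The second took 17.1% and set Xbp1 (0.48), Atf4 (0.45) and Herpud1 (0.45) against Pdia3 (-0.43) and Pdia4 (-0.35).

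**Figure D2:**
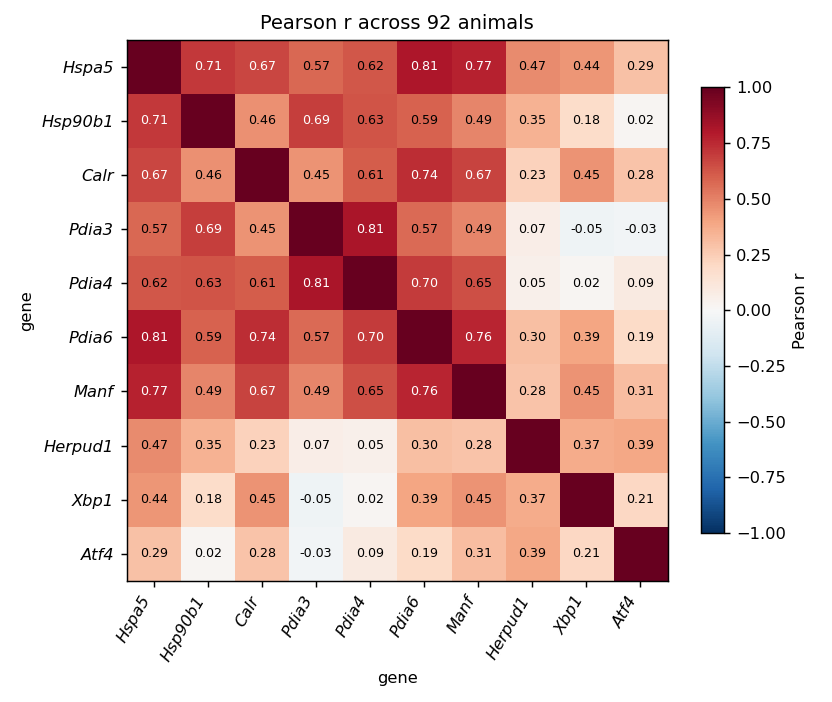
Pearson r across 92 animals for each pair of the 10 genes; both axes list the genes and the colour scale runs from -1 to 1. The block from Hspa5 to Manf holds values from 0.45 to 0.81, and the columns of Herpud1, Xbp1 and Atf4 are paler.

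To place the genes among all others, each of 13440 genes was fitted on the standardised level of Hspa5, so a slope is the log2 difference per SD of Hspa5, and a gene is said to rise or fall with it at an adjusted p under 0.05 (limma, Benjamini-Hochberg over all genes). Of the other 9 members 8 rose with Hspa5, where 5.42% of all genes passed in either direction, 2.83% rose and 2.59% fell. The median slope was 0.15 for the 9 members and -0.0017 over all genes. With 3 principal components as covariates 7 of 9 members passed, against 2.1% of genes. Manf had the steepest slope, 0.24 ± 0.022 (SE; limma adjusted p = 3.81e-15), and Calr the shallowest of the 8, 0.089 ± 0.011 (limma adjusted p = 2.32e-09). Pdia6 had 0.17 ± 0.014 and the smallest adjusted p of all genes in limma, 1.67e-17. Atf4 had 0.053 ± 0.018 and missed the threshold (limma adjusted p = 0.0736). It passed with 7 marker scores as covariates (limma adjusted p = 0.00937) and with each animal centred on its median (0.0391), and without animal 260, when 9 of 9 members and 5.5% of all genes passed, its adjusted p was 0.0242. The slope of Xbp1 on Hspa5, 0.10 ± 0.022, lost its call with 3 principal components as covariates (limma adjusted p = 0.120). Slopes on Hspa5 differed between runs for 0 of 13440 genes in limma (0%), with 817 at an unadjusted p under 0.05, the latter including Herpud1 (unadjusted p = 0.0287).

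Genes outside the 10 that rose most clearly with Hspa5 were Nfil3, a transcription repressor of the clock output (0.53 ± 0.060), Sdf2l1, an ER cofactor of BiP (0.29 ± 0.034), Dnaja1, a cytosolic co-chaperone (0.34 ± 0.040), P4ha1, a collagen prolyl hydroxylase (0.23 ± 0.026), and Serpinh1, the collagen chaperone HSP47 (0.34 ± 0.040). Their limma adjusted p-values ran from 2.31e-10 to 4.87e-10. Those that fell most clearly were Afdn, a junction protein (-0.23 ± 0.029), Rasgrf2 (-0.27 ± 0.035), Kcnj8, a potassium channel subunit of vascular cells (-0.33 ± 0.044), C130074G19Rik (-0.23 ± 0.032) and Septin4 (-0.28 ± 0.039).

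Other chaperones and co-chaperones of the ER followed Hspa5 in part. Of 20 measured, 8 rose and 0 fell, with a median slope of 0.066: Sdf2l1, Creld2 (0.23 ± 0.028), Dnajb9 (0.14 ± 0.022), Hyou1 (0.13 ± 0.024), Dnajb11, Canx, Dnajc3 and Dnajc1. Of 14 other oxidative folding genes 1 rose, Erp44 (0.068 ± 0.018). In ER-associated degradation 3 of 20 rose (Ube2g2, Syvn1 and Selenos), in translocation into the ER 2 of 20 (Spcs3 and Sec11a) and in ER to Golgi transport 4 of 18 (Sec24a, Kdelr2, Surf4 and Sec23a). Of 9 sensors and their proteases only Creb3l2 passed, at 0.075 ± 0.023 (limma adjusted p = 0.0359), while 8 of the 9 slopes were positive. The score of these 9 gave r = 0.388 and rho = 0.402 with Hspa5, and -0.0101 to 0.741 within runs. Its permutation p for r was 0.000656, adjusted over the same 280 relations. The sensor genes themselves did not pass: Ern1, which encodes IRE1, had 0.056 ± 0.030, Eif2ak3, which encodes PERK, 0.069 ± 0.045, and Atf6 0.030 ± 0.019, with limma adjusted p-values of 0.314, 0.440 and 0.404. The differences between these counts were not tested.

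Stress genes of other compartments also rose with Hspa5. Of 14 cytosolic heat shock chaperones 11 rose and 0 fell, with a median slope of 0.17, led in size by Hspa1a (1.31 ± 0.17) and Hspa1b (1.23 ± 0.16), near-identical copies whose reads may be split between them. Of 9 glucocorticoid targets and metallothioneins 5 rose, among them Mt1 (0.63 ± 0.12), Mt2 (0.86 ± 0.17) and Pdk4 (0.42 ± 0.091). Of 24 targets of the integrated stress response 5 rose: Slc3a2 (0.14 ± 0.022), Atf3 (0.61 ± 0.10), Cebpb, Slc7a5 and Ddit4. Ddit3, the transcription factor CHOP linked to cell death under ER stress, had -0.047 ± 0.029 and did not pass (limma adjusted p = 0.409). Hspa5 and the mean standardised score of the heat shock list gave r = 0.629 and rho = 0.608 (permutation p = 1e-05 each, n = 92; adjusted p = 6.5e-05 over 280 relations of the 10 genes to 28 scores). The value was 0.591 without 2 animals and 0.377 to 0.735 within runs. Of 14 clock genes 1 rose, Bmal1 (0.13 ± 0.041), and 2 fell, Dbp (-0.34 ± 0.088) and Per3 (-0.18 ± 0.051), and of 10 immediate-early genes 2 rose, Nr4a3 (0.86 ± 0.15) and Nr4a1. None of 12 calcium store genes of the sarcoplasmic reticulum passed. Of 14 collagens and collagen-modifying genes 5 rose with Hspa5, and these were the modifying enzymes and chaperone P4ha1, P4ha2, Plod1, Plod3 and Serpinh1 while the collagens did not pass.

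Endothelial markers moved the other way. Of 8 measured, 5 fell with Hspa5 (Kdr, -0.23 ± 0.037, Cdh5, Egfl7, Emcn and Tie1) and 0 rose, with a median slope of -0.10. Their summed level ran from 166 to 410, and the weakest, Emcn, had a mean log2 level of 3.47. Hspa5 and the endothelial score gave r = -0.410 and rho = -0.379 (permutation p = 3e-05 and 0.00028; adjusted p of r = 0.000158 over 280 relations), -0.413 without 2 animals and -0.480 to -0.0327 within runs. With 7 marker scores as covariates, the endothelial score among them, 9 of 9 members and 3.85% of all genes passed with Hspa5 in limma; the part of endothelial content in the members' slopes was not tested beyond this fit. In whole muscle, fewer cells of a type and less RNA per cell cannot be told apart. Endothelial scores were also negatively related to Pdia6 (r = -0.421, rho = -0.331, permutation p = 2e-05 and 0.00143) and to Manf (r = -0.386, rho = -0.255, permutation p = 0.00018 and 0.0154). Within runs these went from -0.587 to 0.140 and from -0.682 to 0.259, and the relation of Manf was negative in 3 of the 5 runs, so neither was negative in every run. For Calr r was -0.260 and rho -0.173 (permutation p = 0.0125 and 0.100; adjusted p of r = 0.0297 over 280 relations), with -0.312 to -0.00765 within runs, negative in each of the 5. Without animal 260, 5 of the 8 endothelial markers fell with Hspa5 as well. None of 8 fibroblast and 10 macrophage markers passed with Hspa5.

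**Figure D3:**
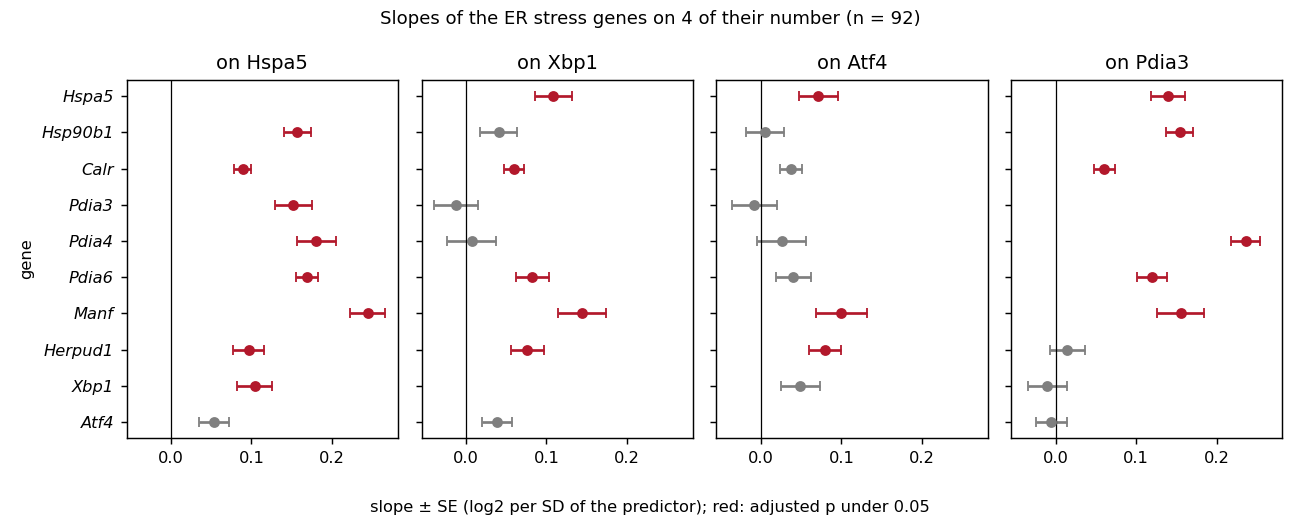
Slopes (horizontal axes, log2 per SD of the predictor, ± SE, n = 92) of the other members on Hspa5, Xbp1, Atf4 and Pdia3; red points passed an adjusted p of 0.05 in limma. On Hspa5, 8 of 9 are red, against 5 on Xbp1, 3 on Atf4 and 6 on Pdia3, where Herpud1, Xbp1 and Atf4 lie near 0.

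Fits on total Xbp1 RNA came next. Of 13440 genes, 134 passed in limma (0.997%; 80 rose, 0.595%, and 54 fell, 0.402%). Without adjustment, 2050 genes had a p under 0.05. Among the other members 5 of 9 rose: Manf (0.14 ± 0.030; limma adjusted p = 0.00636), Hspa5 (0.11 ± 0.023; 0.00675), Calr (0.060 ± 0.013; 0.00808), Pdia6 (0.083 ± 0.020; 0.0249) and Herpud1 (0.076 ± 0.020; 0.0373). The median slope was 0.060 for the members and -0.0015 over all genes. Pdia3 (-0.012 ± 0.028) and Pdia4 (0.0068 ± 0.030) did not pass. With 3 principal components or with 7 marker scores as covariates 0 of the 9 passed, and the number of all genes passing was then 7 and 0. Among those scores the endothelial one was negatively related to Xbp1 (r = -0.293, rho = -0.260, permutation p = 0.00477 and 0.0126; adjusted p of r = 0.0127 over 280 relations), at -0.313 without 2 animals and -0.538 to 0.0283 within runs. The fibroblast score gave r = -0.241 and rho = -0.237 (permutation p = 0.0206 and 0.0229; adjusted p of r = 0.0458), at -0.261 without 2 animals and -0.534 to 0.242 within runs. Without the 2 animals most extreme in Xbp1, 2.03% of genes passed. The call of Herpud1 was also lost without the 2 animals farthest from the median of Xbp1 (limma adjusted p = 0.0720) and on normal scores (0.0631).

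The genes that rose most clearly with Xbp1, in the order of their moderated t, were Kdelr1, which returns ER proteins from the Golgi (0.082 ± 0.014), Emc3, a subunit of the ER membrane complex (0.069 ± 0.011), Acyp1, an acylphosphatase (0.14 ± 0.026), Surf4, a cargo receptor of the ER (0.055 ± 0.011), and Popdc3 (0.092 ± 0.018). Their limma adjusted p-values ran from 0.000272 to 0.00409. The genes that fell most clearly were Scara3 (-0.21 ± 0.043), Sparcl1 (-0.16 ± 0.034), Ptgr3 (-0.090 ± 0.020), Erg, an endothelial transcription factor (-0.13 ± 0.029), and Crhr2 (-0.12 ± 0.028). Of the 20 other ER chaperones 2 rose with Xbp1, Dnajb9 (0.12 ± 0.024) and Dnajb11 (0.070 ± 0.017). In the degradation list 1 of 20 rose, Syvn1, the ubiquitin ligase HRD1 (0.062 ± 0.016), in oxidative folding 1 of 14, P4hb, and in the Golgi list 2 of 18, Kdelr1 and Surf4. The Golgi and translocation scores gave r = 0.540 and 0.486 with Xbp1, at 0.349 to 0.604 and 0.135 to 0.685 within runs. Adjusted over 280 relations, the permutation p of each r was 6.5e-05. Of 14 heat shock chaperones 0 passed, and of 9 sensors 0. Single markers of fibroblasts (0 of 8), macrophages (0 of 10), endothelium (0 of 8) and adipocytes (0 of 10) did not pass either. The slopes of all 8 fibroblast, all 8 endothelial and all 10 adipocyte markers on Xbp1 were below 0, with medians of -0.10, -0.077 and -0.056.

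With Atf4, of 13440 genes 1714 passed (12.8%; 914 rising, 6.8%, and 800 falling, 5.95%; limma, Benjamini-Hochberg), and 3 of the other 9 members rose. These were Herpud1 (0.080 ± 0.020; limma adjusted p = 0.00444), Manf (0.10 ± 0.032; 0.0263) and Hspa5 (0.071 ± 0.024; 0.0405). The pair Hspa5 and Atf4 passed here and missed in the fit on Hspa5, at unadjusted limma p-values of 0.00448 and 0.00493. It is the same relation (r = 0.291), and the adjustment over all genes differed between the fits. The median slope was 0.040 for the members and -0.0027 over all genes. Calr missed at 0.038 ± 0.014 (limma adjusted p = 0.0522) and passed under 7 of 9 alternatives, the exceptions being 3 principal components (0.130) and log2(value + 1) (0.0517). With 7 marker scores 5 of 9 passed, against 4.97% of all genes, Pdia4 (limma adjusted p = 0.00300) and Pdia6 (0.0186) among them, while Herpud1 did not (0.0664). With 3 principal components 1 of 9 passed, Pdia4, against 1.77% of all genes.

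The genes that rose most clearly with Atf4 were Eif2s2, a subunit of the translation factor eIF2 (0.095 ± 0.012), Ybx3, an RNA-binding protein (0.13 ± 0.018), Sars1, a tRNA synthetase (0.090 ± 0.014), Sqstm1, the autophagy receptor p62 (0.12 ± 0.019), and Cib2 (0.13 ± 0.021), with limma adjusted p-values from 6.98e-08 to 8.28e-06. Slc26a2, a sulphate transporter (-0.13 ± 0.020), Rbfox2, a splicing factor (-0.15 ± 0.023), Lum, a matrix proteoglycan (-0.22 ± 0.039), Adcyap1r1 (-0.27 ± 0.047) and Rad21, a cohesin subunit (-0.075 ± 0.013), fell most clearly. Of 24 targets of the integrated stress response 10 rose and 0 fell, with a median slope of 0.048. They included the tRNA synthetases Sars1, Gars1 (0.057 ± 0.012) and Aars1 (0.055 ± 0.014), the phosphatase subunit Ppp1r15a (0.22 ± 0.037) and Chac1 (0.36 ± 0.094). Ddit3 (-0.0035 ± 0.029), Asns, asparagine synthetase (0.032 ± 0.086), and Trib3, a pseudokinase (0.025 ± 0.061), did not pass. Of the 9 sensors and their proteases 0 passed with Atf4. Of 14 heat shock chaperones 11 rose with Atf4, with a median slope of 0.14. Of the other ER chaperones 2 of 20 rose, Creld2 (0.14 ± 0.033) and Sdf2.

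Fibroblast and macrophage markers fell with Atf4, and fewer of them passed without animal 260. Of 8 fibroblast markers 7 fell (Lum, Pdgfra, Postn, Col3a1, Col1a2, Col1a1 and Dpt) and 0 rose, with a median slope of -0.19, and of 10 macrophage markers 5 fell and 0 rose. Without animal 260, lowest in Atf4 and highest in both scores, 3 of 8 fibroblast and 1 of 10 macrophage markers fell, with median slopes of -0.15 and -0.12. Of the other cell lists, 0 of 8 endothelial, 0 of 7 Schwann, 0 of 10 adipocyte, 0 of 6 blood and 0 of 9 slow fibre genes passed, and 5 of the endothelial and 6 of the Schwann slopes were positive. Of 7 smooth muscle genes 1 rose, and of 7 satellite cell genes 1 rose and 1 fell. The summed level of the fibroblast list ran from 463 to 2389 and that of the macrophage list from 51.1 to 749. Of 14 skeletal muscle genes 6 rose, such as Tnnc2 (0.10 ± 0.019) and Ckm (0.080 ± 0.017), and 1 fell, Myh1 (-0.13 ± 0.040). Atf4 and the fibroblast score gave r = -0.449 and rho = -0.347 (permutation p = 1e-05 and 0.0006; adjusted p of r = 6.5e-05 over 280 relations), -0.396 without 2 animals, -0.386 without animal 260 and -0.840 to -0.0445 within runs. For the macrophage score r was -0.292 and rho -0.191 (permutation p = 0.00489 and 0.0671; adjusted p of r = 0.0129), and r was -0.208 without animal 260. Within runs it went from -0.869 to 0.0950 and was negative in 2 of the 5, so the negative sign did not hold in most runs. Once the 7 marker scores were included in the model, 668 genes passed with Atf4 in limma in place of 1714, 542 of them shared, and without the 2 animals most extreme in Atf4 899 passed. Without animal 260 alone 1299 passed, and 4 of the 9 members, Calr being added.

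Whether a gene followed Hspa5 more than Atf4 was tested directly in 1 model with both. Over all genes 1183 of 13439 differed (8.8%; limma, Benjamini-Hochberg), and 6 of the 8 remaining members did, all steeper on Hspa5. For Hsp90b1 the slopes were 0.17 on Hspa5 and -0.045 on Atf4, a difference of 0.21 ± 0.027 (limma adjusted p = 3.13e-08). For Pdia6 they were 0.17 and -0.0098, a difference of 0.18 ± 0.023 (limma adjusted p = 3.13e-08). Pdia3, Pdia4, Manf and Calr passed as well, with differences of 0.23, 0.22, 0.20 and 0.072. Herpud1 was not steeper on either beyond error (0.080 and 0.056; difference 0.024 ± 0.031; limma adjusted p = 0.685), and Xbp1 did not pass (0.077 ± 0.037; 0.181). With 7 marker scores 3 of the 8 members passed, against 5.1% of all genes, with Calr (limma adjusted p = 0.197), Pdia4 (0.0611) and Manf (0.0930) lost. With 3 principal components 5 of 8 passed, against 0.945% of all genes, Calr being lost (0.0555). Cell markers differed in the same model: 9 of 10 macrophage and 5 of 8 fibroblast markers were steeper on Hspa5, while 3 of 8 endothelial and 2 of 7 Schwann markers were steeper on Atf4. Without animal 260, 559 genes differed (4.16%), with 5 of the 8 members among them (Calr lost, limma adjusted p = 0.0536), and 3 macrophage, 2 fibroblast and 2 endothelial markers. The part of these cells in the members' differences was not tested beyond the fit with marker scores.

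A fit on Pdia3 was added after the values near 0 between Pdia3 or Pdia4 and Xbp1 had been seen. Of 13440 genes 1098 passed with Pdia3 in limma (8.17%; 783 rising, 5.83%, and 315 falling, 2.34%). Among the other members 6 of 9 rose: Pdia4 (0.24 ± 0.018; limma adjusted p = 1.36e-18), Hsp90b1 (0.15 ± 0.017; 7.75e-11), Hspa5, Pdia6, Manf and Calr. The median slope was 0.12 for the members and -0.0027 over all genes. Herpud1 (0.014 ± 0.021), Xbp1 (-0.011 ± 0.024) and Atf4 (-0.0057 ± 0.019) did not pass. With 7 marker scores Herpud1 passed (0.090; limma adjusted p = 0.0146).

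All 8 fibroblast and all 10 macrophage markers rose with Pdia3 in limma, with median slopes of 0.22 and 0.30. Col3a1 had 0.27 ± 0.048, Dpt 0.19 ± 0.033, C1qb 0.33 ± 0.058 and Mrc1 0.30 ± 0.056. Each marker was measured, the weakest being Postn at a mean of 3.27 and Adgre1 at 1.59. The weight of these cells in the relations of Pdia3 was read from the covariate fits only: with the 7 marker scores included 598 genes passed in place of 1098, and 7 of 9 members passed. Without the 2 animals most extreme in Pdia3, 641 genes and 6 of 9 members passed. Without animal 260 alone 749 genes, 6 of 9 members, 7 of 8 fibroblast and all 10 macrophage markers passed. Pdia3 and the fibroblast score gave r = 0.582 and rho = 0.475 (permutation p = 1e-05 each; adjusted p of r = 6.5e-05 over 280 relations), 0.523 without 2 animals, 0.531 without animal 260 and 0.329 to 0.779 within runs. Pdia4 and the same score gave r = 0.536 and rho = 0.495 (permutation p = 1e-05 each), 0.492 without 2 animals and 0.313 to 0.817 within runs. For Hspa5 it was r = 0.0518 (permutation p = 0.625), for Calr 0.140 (0.183) and for Manf 0.144 (0.172). Hsp90b1 gave r = 0.244 (permutation p = 0.0189, adjusted 0.0427), with rho at 0.168 (permutation p = 0.110), and Pdia6 r = 0.208 (adjusted p = 0.0905, permutation test). Herpud1 was negatively related to the fibroblast score, at r = -0.357 and rho = -0.285 (permutation p = 0.00051 and 0.00567; adjusted p of r = 0.00188), with -0.550 to 0.230 within runs. The slow fibre score gave r = 0.290 and rho = 0.205 with Pdia4 (permutation p = 0.00546 and 0.0494; adjusted p of r = 0.0143). Within runs this r was 0.190 to 0.512, and without 2 animals 0.203. With Pdia3 the slow fibre score gave r = 0.210 (adjusted p = 0.0888, permutation test).

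The macrophage score was positively related to the isomerases and to some of the chaperones. Pearson's r with it was 0.516 for Pdia4, 0.510 for Pdia3, 0.387 for Pdia6, 0.342 for Calr, 0.298 for Hsp90b1 and 0.270 for Manf, with permutation p-values adjusted over 280 relations of 6.5e-05, 6.5e-05, 0.000806, 0.00324, 0.0103 and 0.0237. Without animal 260 these values were 0.456, 0.448, 0.333, 0.290, 0.249 and 0.201. Spearman's rho was lower, at 0.407, 0.363, 0.297, 0.284, 0.173 and 0.168, and the last 2 had permutation p-values of 0.0997 and 0.109. The relation was positive in each of the 5 runs for Pdia4, Pdia6, Calr and Manf, and in 4 for Pdia3 (lowest -0.0761) and Hsp90b1 (lowest -0.121). Hspa5 gave r = 0.172 (adjusted p = 0.167, permutation test), and Herpud1 gave -0.279 (adjusted p = 0.0196, permutation test), with -0.563 to 0.291 within runs.

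The score of 7 satellite cell and myoblast genes, the muscle stem cells and their progeny, was positively related to several of the same members. Pearson's r was 0.341 for Manf, 0.338 for Pdia4, 0.332 for Pdia6, 0.322 for Calr and 0.250 for Xbp1, with rho at 0.270, 0.228, 0.284, 0.332 and 0.383 and permutation p-values of r, adjusted over 280 relations, of 0.00256, 0.00384, 0.00452, 0.00557 and 0.0382. Without animal 260, r was 0.262, 0.221, 0.255, 0.253 and 0.305. For Calr and Xbp1 it was positive in each of the 5 runs, from 0.0301 to 0.490 and from 0.0643 to 0.707, while for Manf, Pdia4 and Pdia6 the lowest run gave -0.336, -0.570 and -0.383. The genes of this list were weakly measured, with a median summed level of 42.2, a highest of 94.8, and mean log2 levels from 0.038 for Megf10 to 3.90 for Cdh15. This score was not among the 7 covariates, and its part in the members' relations was not tested. After the 7 marker scores were removed from both genes, r between Pdia3 and Pdia4 was 0.718 in place of 0.814, and between Pdia3 and Atf4 0.311 in place of -0.0312. All 45 pairs were then positive, with a median r of 0.455.

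**Figure D4:**
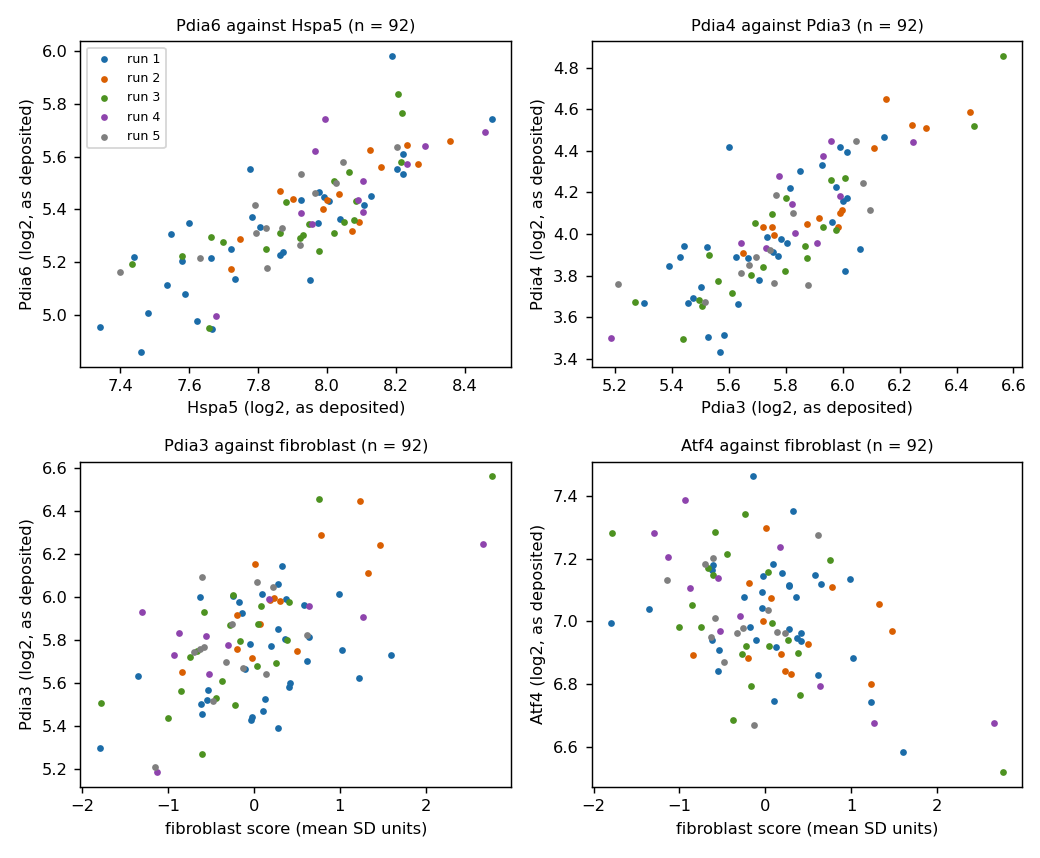
Each point is 1 of 92 animals, coloured by title-number run; gene axes are log2 expression as deposited, and the fibroblast score is the mean of 8 standardised markers. Pdia6 rises with Hspa5 (r = 0.806) and Pdia4 with Pdia3 (r = 0.814), while Pdia3 rises (r = 0.582) and Atf4 falls (r = -0.449) with the fibroblast score.

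The collagen list rose with Pdia3 in 9 of 14 genes, here including the collagens Col1a1, Col1a2, Col3a1, Col5a1 and Col5a2 beside Serpinh1 (0.35 ± 0.039). Col1a1, Col1a2 and Col3a1 are also among the fibroblast markers above, so the counts of these lists overlap. The genes nearest to Pdia3 by r were Man1a, a mannosidase of the secretory pathway (0.692), Serpinh1 (0.678) and Anxa2 (0.660), and to Pdia4 Serpinh1 (0.769), Sdf2l1 (0.721) and Anxa2 (0.693). Of 20 other ER chaperones 7 rose with Pdia3, among them Sdf2l1 (0.26 ± 0.036), Ppib (0.11 ± 0.019) and Hyou1 (0.13 ± 0.024). In the model with both predictors 1885 of 13439 genes had slopes on Hspa5 and Pdia3 that differed (14%; limma). Of the 8 remaining members 7 did: Xbp1 (0.27), Manf (0.21), Herpud1 (0.19), Atf4 (0.14), Pdia6 (0.12) and Calr (0.067) were steeper on Hspa5, and Pdia4 (-0.13) on Pdia3. With 3 principal components or with 7 marker scores 0 of these 8 passed, on 0 and 1 of all genes. With the run as a covariate 6 passed, without the 2 animals farthest from the median of Hspa5 also 6, and on normal scores 4. Pdia3 was chosen as a predictor after its relations to other members had been seen. The calls of the members here therefore describe relations already seen and are not an independent test. All 8 fibroblast and 9 of 10 macrophage markers were steeper on Pdia3 than on Hspa5, and 8 and 5 of them without animal 260, when 7 of the 8 members passed.

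The nearest genes to the other members, by Pearson's r over 92 animals, were as follows. Creld2 and Sdf2l1, ER proteins induced by ER stress, were among the nearest to Hspa5 (0.671 and 0.677), Calr (0.608 and 0.684), Pdia6 (0.687 and 0.729) and Manf (0.767 and 0.666). The other gene among the 3 nearest was Nfil3 (0.672) for Hspa5, Dynll1, a dynein light chain (0.576), for Calr, Serpinh1 (0.658) for Pdia6 and the small heat shock protein gene Hspb1 (0.627) for Manf. Hsp90b1 was nearest to the cytosolic chaperones Dnaja1 (0.622), Hsp90aa1 (0.600) and Hspa8 (0.595). Herpud1 was nearest to Tmcc1 (0.543), an ER membrane protein, Dctn4 (0.530) and Arcn1 (0.528), a coatomer subunit.

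**Figure D5:**
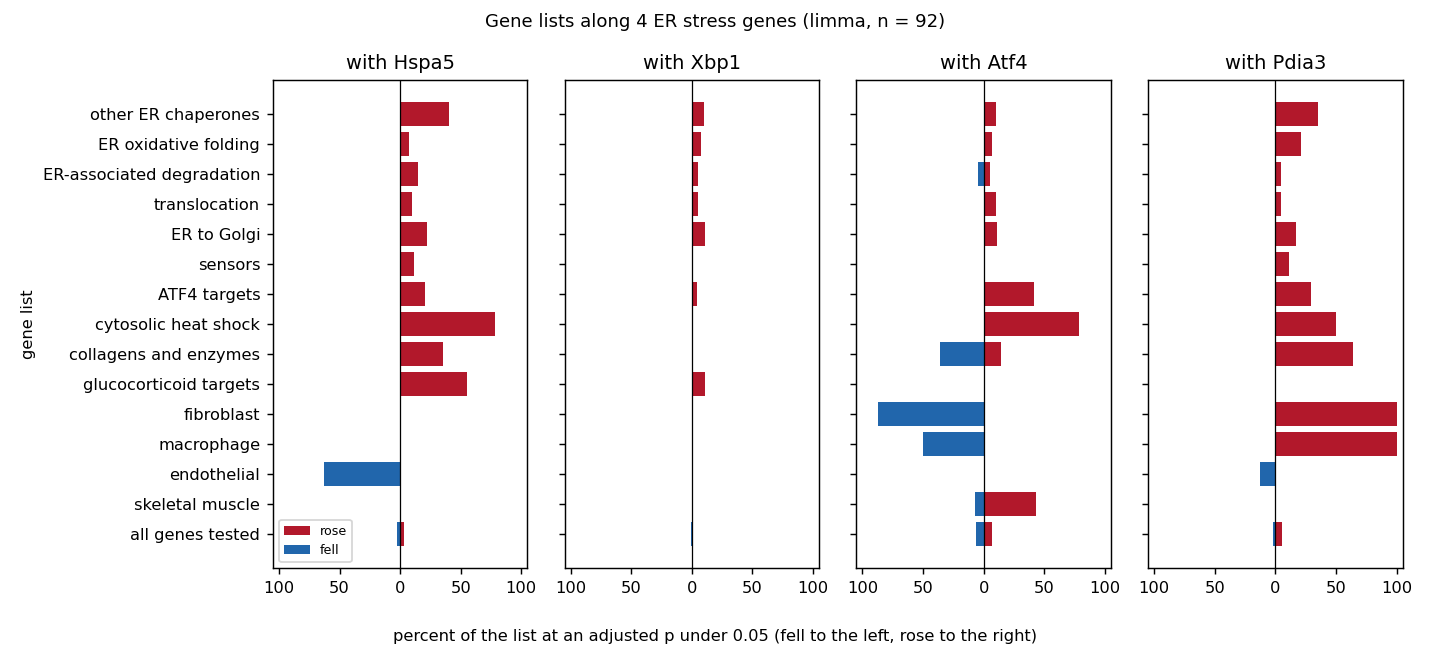
Percent of each gene list (vertical axis) that rose (red, to the right) or fell (blue, to the left) with Hspa5, Xbp1, Atf4 and Pdia3 at an adjusted p under 0.05 in limma (n = 92); the last bar is all genes tested. Heat shock genes rose with Hspa5 and Atf4 (11 of 14 each), and fibroblast markers rose with Pdia3 (8 of 8) and fell with Atf4 (7 of 8).

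Genes outside the 10 that share the ERSE can be set beside this. Of 12 analysed genes other than the members with an ERSE in the window, 5 rose with Hspa5 in limma, against 2.82% of 10116 genes with a promoter entry. They were Creld2, Canx (0.090 ± 0.023), Dnajc3 (0.066 ± 0.019), Syvn1 (0.055 ± 0.016) and Hnrnpa3 (0.043 ± 0.013). The other 7, among them Alg12 (0.040 ± 0.026) and Ero1b (-0.0023 ± 0.042), did not pass. With the other predictors the same 12 genes gave lower counts: 4 rose with Pdia3, against 5.85% of genes with a promoter entry, 1 rose with Xbp1 (0.613%), and 1 rose and 1 fell with Atf4 (6.76% and 6.16%). Of 8 genes with an ERSE-II 1 rose and 1 fell with Hspa5. The shorter motifs were found in more genes. Of those with the core unfolded protein response element 4.35% rose with Hspa5 (14 of 322), 2.17% with Xbp1, 9.32% with Atf4 and 2.8% with Pdia3. Of those with the ATF4 composite element 5.43% rose (15 genes) and 6.52% fell (18 genes) with Atf4, so the share rising was not above that of genes with a promoter entry. With Pdia3 10.5% of the latter genes rose (29 genes) and 3.62% fell (10 genes), against 5.85% and 2.34% of genes with a promoter entry. These shares were not tested. Of the 4 members whose windows held no match, Pdia3, Pdia4 and Xbp1 rose with Hspa5, the call of Xbp1 being lost with 3 principal components, and Atf4 did not pass (0.053; limma adjusted p = 0.0736).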

How the data were processed

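The values are log2 expression as deposited by the authors, 1 table of genes by samples, in which each value column matched a sample title (0 columns left over). The submitters' processing notes name bcl2fastq, MultiQC, kallisto 0.50.1, edgeR and the build mm10, without their roles. The exact scaling of the log2 values is not given in the sources used here. Of 13456 lines, 15 repeats with identical values were removed. The smallest root mean square difference of any of 4186 pairs of samples was 0.521 against a median of 0.66, so no library was counted more than once. The samples are separate animals by title.

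The design allowed for counts or normalized values. Because the table holds log2 values, limma 3.58.1 (R 4.3.3) was used with moderated variances that follow a trend on the mean, with p-values adjusted by Benjamini-Hochberg across all genes, and was tested on simulated data. The members and gene lists were chosen with earlier results of these data known. The motifs and the fits on Pdia3 were added after values had been seen. The score of a list averages its genes after each was standardised. Exon lengths and gene coordinates are from the GENCODE annotation of GRCm38, and promoters are from RefSeq (GRCm38.p6).

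Genes named were the 10 members; for Hspa5, Xbp1 and Atf4 at most 5 genes in each direction with the largest moderated t among those past 0.05 with a mean of at least 1; for each other member the 3 genes with the largest r; and up to 4 genes of each list. Other genes named from the lists were chosen after their values were seen. Alternatives were the run, 3 principal components or 7 marker scores (adipocyte, macrophage, fibroblast, endothelial, Schwann, blood, slow fibre) as covariates, removal of 2 animals, log2(value + 1), a mean of at least 1, median centring, normal scores and, added after seeing the data, removal of animal 260. Of the lists for other cell types, 1 of 9 B and plasma cell genes was analysed, and T cell genes were not analysed here. With Hspa5, 0 of 10 adipocyte, 0 of 9 slow fibre, 0 of 6 blood and 0 of 7 smooth muscle genes passed in limma, 1 of 7 Schwann genes fell, and 1 of 7 satellite cell genes rose (Vcam1, 0.15 ± 0.040).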

Additional observations from a re-analysis of the deposited data

How the results depend on the processing

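The share of all genes tested that passed in limma moved by over 1.5 times as follows. With Hspa5 it was 5.42%, and 2.1% with 3 principal components as covariates. With Xbp1 it was 0.997%, and 0.0521% with 3 principal components, 0% with 7 marker scores, 2.03% without the 2 farthest animals, 2.64% with median centring and 0.647% on normal scores. With Atf4 it was 12.8%, and 1.77% with 3 principal components, 4.97% with marker scores and 6.69% without 2 animals. With Pdia3 it was 8.17%, and 2.28%, 4.45% and 4.77% under the same settings. Slopes on Hspa5 and Atf4 differed for 8.8%, and for 5.8% with the run as a covariate, 0.945% with 3 principal components, 5.1% with marker scores and 4.16% without animal 260. Those on Hspa5 and Pdia3 differed for 14%, against 0% with 3 principal components and 0.00744% with marker scores. The run test gave 0.0149%, and 0.00744% with title number as a continuous covariate and with median centring, and 0% with 3 principal components, marker scores or normal scores. The cause of these shifts was not tested.

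Slopes near 0 changed sign. That of Pdia4 on Xbp1 was -6.30e-05 with 3 principal components and -0.0082 without 2 animals. That of Pdia3 on Xbp1 was 0.023 with marker scores. That of Pdia3 on Atf4 was 0.083 with 3 principal components, 0.076 with marker scores, 0.012 without 2 animals, 0.0067 on normal scores and 0.015 without animal 260, and that of Atf4 on Pdia3 was 0.054, 0.062, 0.0057, 0.0067 and 0.011. That of Xbp1 on Pdia3 was 0.027 with marker scores. The difference of the slopes of Hsp90b1 on Hspa5 and Pdia3 was -0.034 with marker scores and -0.016 without 2 animals. The steps log2(value + 1) and the run as a covariate reversed none of the 36 member slopes.

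No paired analysis was possible because there was 1 group. Library depth is unknown, and counting error is not given. Total transcript levels carry no information on splicing of Xbp1 or translation of Atf4.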
